A study of Mus musculus with 15 samples.

Results

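DNA methylation in the mouse stomach was examined through the transcripts of 7 genes that place or remove the mark: the maintenance pair Dnmt1 and Uhrf1, the de novo methyltransferases Dnmt3a and Dnmt3b, and the TET oxidases Tet1, Tet2 and Tet3. The rule took the genes by name from 44788 gene symbols, and each had 1 entry in each of the 15 transcriptomes. RNA came from whole stomachs of C57BL/6 mice, with 1 transcriptome per timepoint: each embryonic day between E12.5 and E18.5, postnatal days 1, 3 and 5 (D1, D3, D5), and postnatal weeks 1, 2, 3, 6 and 8 (W1 to W8). No animal carried an allele or received an agent. The study reports stomachs taken without regard to sex through W2 and from males later, so the sexes sampled also differ between Ph2 and Ph3. It reports replicates pooled from more than 1 embryo at E12.5 to E17.5 and single animals after E18.5. The timepoints were grouped into the RNA phases of the study, Ph1 (E12.5 to E17.5, n = 6), Ph2 (E18.5 to W2, n = 6) and Ph3 (W3 to W8, n = 3), which were themselves drawn from these transcriptomes. Because no timepoint was repeated, the timepoints of a phase stood in as its replicates, and the spread within a phase holds development as well as error.

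Cytosine methylation at CpG dinucleotides is written by DNA methyltransferases and generally accompanies silencing of the promoters that carry it. After replication the daughter strand lacks the mark, and UHRF1 binds the hemimethylated site and brings in DNMT1, which copies the parental pattern. DNMT3A and DNMT3B methylate unmodified DNA during development, while the TET enzymes oxidise methylcytosine with 2-oxoglutarate and iron, the first step of active removal. In the gut, dividing progenitors depend on the maintenance pair.

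All 7 genes fell across stomach development: each was highest at E12.5 and lowest at W6, a pattern held by 19.9% of the 16902 genes that reached 1 FPKM at any timepoint. FPKM divides the fragments of a gene by its transcript length and by the size of the library, so levels can be set side by side between genes. From E12.5 to E18.5, Dnmt1, Uhrf1 and Dnmt3a formed an abundant group, Tet3 an intermediate one, and Dnmt3b, Tet2 and Tet1 a low one. The abundant and intermediate groups met later. Tet3 was above Uhrf1 at W2 with overlapping bounds (8.62 against 8.25 FPKM). At W8 it was above Uhrf1 and Dnmt3a (5.77 against 5.45 and 4.95), with bounds apart from those of Dnmt3a only. Dnmt1 was the highest of the 7 at 14 of 15 timepoints, and Tet1 was the lowest at 15 of 15. The authors' upper and lower FPKM bounds overlapped between Dnmt1 and Uhrf1 at every timepoint from E12.5 to E18.5, so that their order was not resolved there. They also overlapped between Dnmt3b and Tet2 from E12.5 to E15.5. The span from highest to lowest value was 24.4-fold for Tet1, 18.04-fold for Dnmt3a, 17.3-fold for Uhrf1, 13.2-fold for Dnmt3b and 11.9-fold for Dnmt1, but 5.86-fold for Tet2 and 5.35-fold for Tet3.

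**Figure D1:**
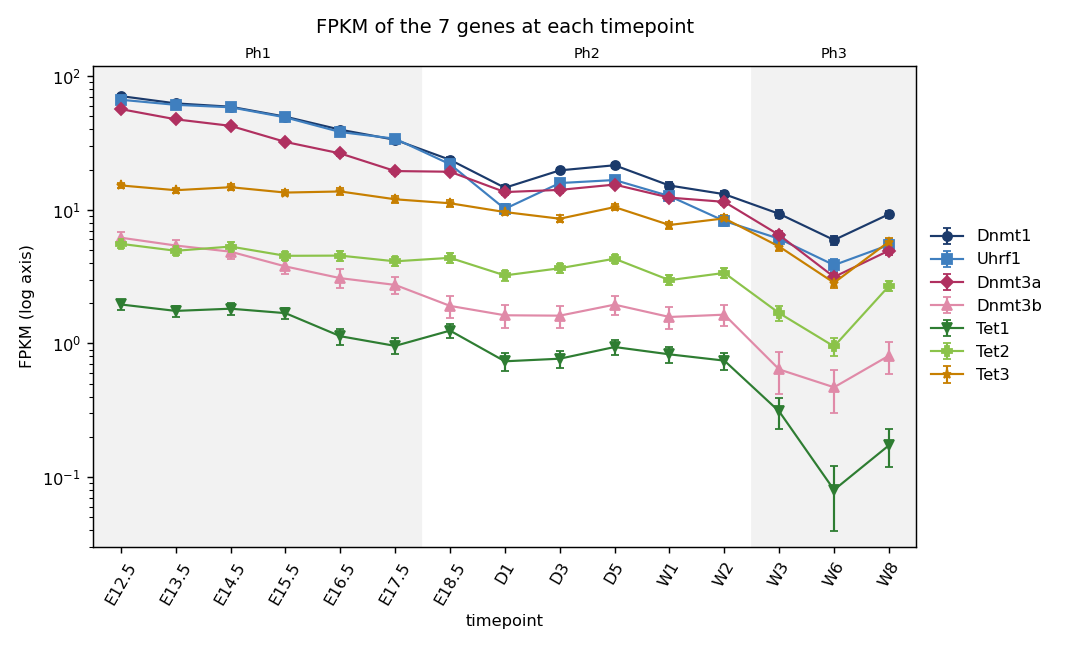
FPKM of each gene (vertical log axis) at each of the 15 timepoints (horizontal axis), with the authors' lower and upper bounds as bars and the phases as shaded bands. All 7 lines run from their highest point at E12.5 to their lowest at W6, where Tet1 stood at 0.0801 FPKM.

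The transcriptomes changed in make-up as the stomach matured. The 10 most abundant genes held 11.2% to 15.9% of all FPKM in Ph1, 20.03% to 32.6% in Ph2 and 36.7% to 53.2% in Ph3, the largest share being at W6. A rise of such genes lowers the FPKM of every other gene, and the median log2 difference over all genes tested was -0.22 between Ph1 and Ph2 and -0.43 between Ph2 and Ph3. The tests of the 7 genes are therefore also given after median-ratio scaling, which brings the typical gene to the same level in every transcriptome; the medians were then 0.00 and -0.02. On that scale too all 7 genes were highest at E12.5 and lowest at W6, as were 7.72% of the genes tested. Depth, estimated from the bounds, varied less, from 0.702 (E16.5) to 1.17 (W6) times that of E12.5. The stomach label fitted its markers, since 10 of 10 of them (among them Barx1, Cldn18 and Atp4a) reached 1 FPKM in all 15 transcriptomes, with sums of 712 to 3570 FPKM in Ph1, 7039 to 65284 in Ph2 and 128189 to 198034 in Ph3. The 8 mesenchymal markers summed to 1989 to 3732 FPKM in Ph1, 1728 to 4277 in Ph2 and 319.8 to 1562 in Ph3, and the 8 erythroid markers to 5741 to 7643, 265.9 to 3130 and 294.0 to 674. The part of these shifts in the results below was not tested. In a whole organ, fewer cells that express a gene and less of its RNA in each cell cannot be told apart.

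Differences between phases were tested with limma on log2(FPKM + 1) over the 16902 genes, with Benjamini-Hochberg adjustment and a threshold of 0.01; the pseudocount of 1 FPKM understates the change of the low genes. The moderated F test across the 3 phases called 7 of 7 genes, beside 70.8% of all genes tested. After scaling it called 6 of 7, beside 60.7%, and Tet2 was the exception with an adjusted p of 0.0261. From Ph1 to Ph2, 6 of 7 were lower in Ph2, where 35.1% of all genes were, and the exception was again Tet2. After scaling, the calls were Dnmt1, Uhrf1, Dnmt3a and Dnmt3b, 4 of 7 beside a background of 18.7%, and none of the 3 TET genes passed the threshold. From Ph2 to Ph3, 7 of 7 were lower, against 37.4% of all genes. After scaling only Dnmt3a and Tet1 passed, 2 of 7 beside 10.2%.

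**Figure D2:**
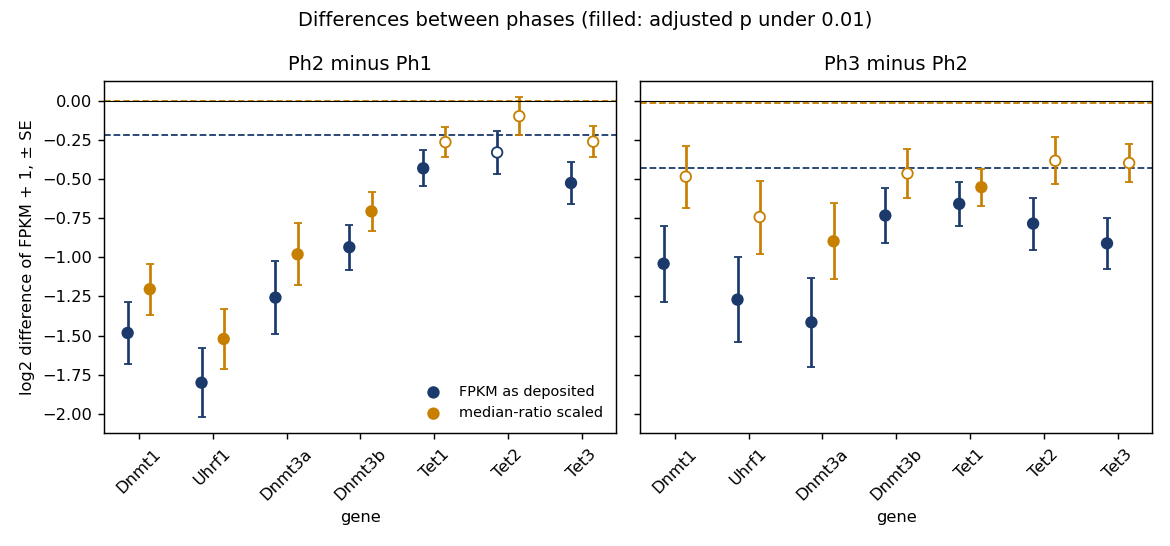
Difference in log2(FPKM + 1) between neighbouring phases (vertical axis) with its standard error for each gene, on FPKM as deposited (blue) and after median-ratio scaling (orange). Filled points have an adjusted p under 0.01, and the dashed lines give the median of all 16902 genes, -0.22 and -0.43 as deposited; the 4 genes of the methyltransferase arm lie lowest on the left.

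The Ph2 to Ph3 calls leaned on the W6 transcriptome, as did those over all genes tested. With W6, 6328 of 16902 genes were lower, and without it, with fewer Ph3 timepoints, 2822 of 16881. Without W6, the limma adjusted p values ran from 0.0113 for Dnmt3a to 0.0240 for Dnmt1, and Tet3 alone stayed under the threshold with 0.00348. The differences remained negative for 7 of 7 genes, from -0.55 for Tet2 to -1.19 for Dnmt3a. On scaled values without W6, 0 of 7 passed by limma, where 4 of 7 had an unadjusted p under 0.05. Over all genes, 617 of 16881 were lower in that fit. W6 lay below both W3 and W8 for 7 of 7 genes, as it did for 55.6% of all genes tested.

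Dnmt1, which copies methylation onto newly made DNA, lies on the minus strand at chr9:20907205-20959888 (GRCm38, as in the files). Its FPKM ran from 33.4 at E17.5 through a median of 54.4 to 71.0 at E12.5 in Ph1, and from 13.1 at W2 through 17.47 to 23.7 at E18.5 in Ph2. In Ph3 it was 9.33 at W3, 5.94 at W6 and 9.27 at W8. No timepoint of a later phase reached the level of an earlier one, and Dnmt1 was below 50% of its E12.5 level from E17.5 on, or from E18.5 on after scaling. The log2 difference was -1.48 ± 0.20 (SE) from Ph1 to Ph2, with an adjusted p of 8.04e-05 by limma, and -1.04 ± 0.24 from Ph2 to Ph3, with 0.00242. After scaling, the first difference was -1.20 ± 0.16 with an adjusted p of 0.000118 by limma. The second was then -0.49 ± 0.20 with 0.0625 and was no longer called, and W8 at 13.7 scaled FPKM stood above the lowest Ph2 value of 13.6.

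Uhrf1, the reader of hemimethylated CpG and ubiquitin ligase that recruits DNMT1, lies on the plus strand at chr17:56303337-56323486. In Ph1 it measured 34.1 FPKM at E17.5, a median of 53.9 and 66.7 at E12.5, and in Ph2 8.25 at W2, a median of 14.3 and 21.9 at E18.5. The Ph3 values were 6.07 at W3, 3.86 at W6 and 5.45 at W8. The phases did not overlap on the deposited or on the scaled values. It had the largest difference of the 7 from Ph1 to Ph2, -1.80 ± 0.22 (SE; adjusted p of 6.53e-05 by limma), or -1.52 ± 0.19 with 9.07e-05 after scaling. From Ph2 to Ph3 it was -1.27 ± 0.27 with an adjusted p of 0.00148, and -0.74 ± 0.23 with 0.0197 after scaling, which missed the threshold.

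Step by step, Dnmt1 and Uhrf1 moved together. Of the 14 steps between neighbouring timepoints, both had 10 at which the later value was lower with bounds apart, 2 at which it was higher with bounds apart, and 2 at which the bounds overlapped, and the steps were the same ones. The rises were from D1 to D3, when Dnmt1 went from 14.6 to 19.7 FPKM and Uhrf1 from 10.2 to 15.9, and from W6 to W8. Across the 15 timepoints the Pearson r of log2(FPKM + 1) between the pair was 0.996 as deposited and 0.992 after scaling, with points that share their libraries. The other members had an r with Dnmt1 of 0.89 (Tet2) to 0.98 (Dnmt3b) as deposited and of 0.66 (Tet2) to 0.97 (Dnmt3b) after scaling.

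The share of Uhrf1 within the pair differed between Ph1 and Ph2. The ratio of Uhrf1 to Dnmt1 FPKM within a transcriptome, which no scaling of the libraries can alter, lay between 0.939 and 1.02 in Ph1 and between 0.630 and 0.926 in Ph2. It was 0.650 at W3, 0.649 at W6 and 0.588 at W8. All 6 Ph1 ratios were above all 6 Ph2 ratios, and the log2 ratio was lower by -0.34 on average (exact two-sided permutation test over 924 splits, p = 0.00216, the smallest possible; adjusted p of 0.0173 over the 16 ratio tests made). Because the timepoints are ordered by age, this and the later exact tests cannot tell a step between phases from a drift with age. With the phase borders of the study's protein classification, which put E17.5 into Ph2, the groups overlapped and the difference of -0.27 was not called (exact permutation test, adjusted p of 0.0808). The step to Ph3 was -0.30 with an adjusted p of 0.127, and the W2 ratio of 0.630 lay within the range of Ph3.

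The pair was also set against the replication machinery, by dividing each gene by the geometric mean of 25 DNA replication genes such as Pcna and Mcm6. For Dnmt1 this ratio was 1.25 to 1.46 in Ph1, 1.13 to 1.503 in Ph2, and 1.15, 1.14 and 1.53 at W3, W6 and W8. The phases overlapped, and neither step passed its exact permutation test (adjusted p of 0.179 and 0.940). For Uhrf1 it was 1.26 to 1.43 in Ph1 and 0.829 to 1.16 in Ph2, with no overlap. That step was -0.46 on the log2 scale (exact permutation test, adjusted p of 0.0173), whereas the step to Ph3 was -0.29 with 0.133. The replication mean itself stood at 54.6% of its E12.5 level at E17.5, 23.8% at D1 and 10.6% at W6.

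**Figure D3:**
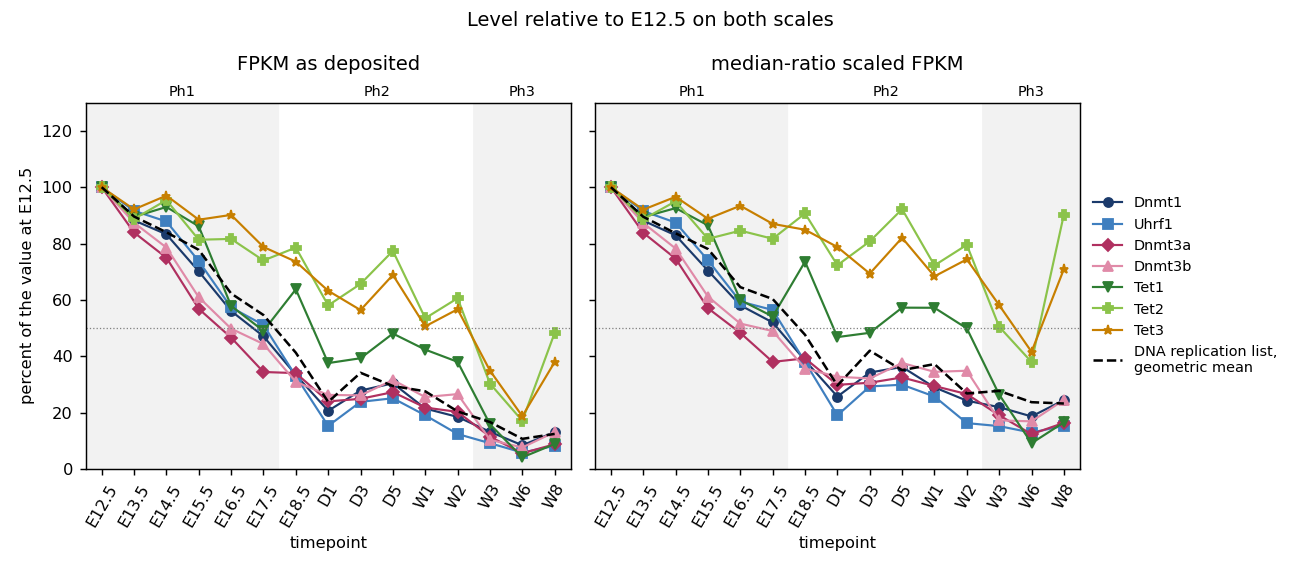
Level of each gene as a percent of its E12.5 value (vertical axis) at each timepoint, on FPKM as deposited (left) and after median-ratio scaling (right), with the geometric mean of 25 DNA replication genes as a dashed line and 50% as a dotted one. The methyltransferase arm and the dashed line both fall, Dnmt3a ahead of the line before birth. At E17.5 as deposited, Dnmt3a stands at 34.4%, Dnmt1 at 47.1% and the dashed line at 54.6%. Tet2 and Tet3 stay above 50% through W2 as deposited. After scaling they stay above 50% through W3 and again at W8, with W6 alone below.

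Promoter sequence is shown for this pair because replication genes are textbook targets of E2F factors and the pair was compared with them above. In RefSeq windows of 300 bases (250 before to 50 after a start site, GRCm38.p6), all 7 genes matched with 12 windows in all. The letters searched were TTTCGCGC and TTTGGCGC with their reverse complements GCGCGAAA and GCGCCAAA, forms of the site bound by E2F factors. They occurred in 0.813% of 32851 windows, in 7 of 24 windows (29.2%) of the DNA replication list, and among the 7 genes in 1 window each of Dnmt1 and Uhrf1. The 3 stretches of 30 bases that hold them follow, 5′ to 3′ on the gene's strand, with the matching letters in capitals.
Dnmt1, upstream match: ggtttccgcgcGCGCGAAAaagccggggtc
Dnmt1, downstream match: gcgcggggcagcgTTTGGCGCgggctgtgc
Uhrf1, upstream match: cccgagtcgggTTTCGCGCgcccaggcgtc

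The Dnmt1 stretches lie on the minus strand at chr9:20952824-20952853, where the match starts 219 bases before the start site at position 20952623, and at chr9:20952574-20952603, where it starts 33 bases after it. Both overlap an exon that is annotated as untranslated region of Dnmt1 (GENCODE vM21). The Uhrf1 stretch lies on the plus strand at chr17:56304117-56304146, with the match starting 185 bases before the start site at 56304313, within a Uhrf1 transcript but outside its exons. The other windows of Dnmt1 and Uhrf1 and all windows of the remaining 5 genes had none of these letters. The CCAAT box, searched as CCAAT and ATTGG, is common (37.4% of all windows) and occurred in windows of Dnmt1, Uhrf1 and Tet3. The windows with E2F letters held 33 CpG each against a median of 7 in all windows, but the letters searched contain CpG themselves. Windows of the 7 genes without these letters held from 2 (Dnmt1) to 57 CpG (Tet2), with 47 in a window of Dnmt3a. A match is a description of the letters only, since no binding or methylation was measured here.

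The de novo enzymes declined as well. Dnmt3a (plus strand, chr12:3805604-3914443), the main de novo methyltransferase of somatic tissue, measured 19.5 FPKM at E17.5, a median of 37.4 and 56.7 at E12.5 in Ph1. Ph2 held 11.5 at W2, a median of 13.8 and 19.3 at E18.5, and Ph3 held 6.48, 3.14 and 4.95 at W3, W6 and W8. Much of the fall came before birth. Dnmt3a was below 50% of its E12.5 level from E16.5 on, on both scales, and E17.5 and E18.5 had overlapping bounds. The log2 difference was -1.26 ± 0.23 (SE; adjusted p of 0.000435 by limma) from Ph1 to Ph2 and -1.41 ± 0.28 (0.000996) from Ph2 to Ph3. It was the only methyltransferase called at both steps after scaling, with -0.98 ± 0.20 (adjusted p of 0.00106 by limma) and -0.90 ± 0.24 (0.00897), although the second call was lost in 10 of 15 fits that left out 1 timepoint (the exceptions being E12.5, E13.5, E16.5, E17.5 and W2). On scaled values Ph2 and Ph3 did not overlap, while the E17.5 value of 17.0 lay below the E18.5 value of 17.6.

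Dnmt3b (plus strand, chr2:153649403-153687730), the paralogue best known from early embryos, was the weaker of the pair throughout. Its FPKM was 2.74 at E17.5, a median of 4.31 and 6.19 at E12.5 in Ph1, then 1.58 at W1, a median of 1.63 and 1.95 at D5 in Ph2. At W3, W6 and W8 it was 0.639, 0.469 and 0.809. The phases did not overlap on either scale, and within Ph2 the values were flat, with overlapping bounds at all 5 steps. The log2 difference was -0.94 ± 0.14 (SE; adjusted p of 0.000151 by limma) and then -0.73 ± 0.18 (0.00310). After scaling the first held with -0.71 ± 0.13 (adjusted p of 0.000508 by limma), and the second, -0.46 ± 0.15 with 0.0261, did not. The Ph3 values rest on an estimated 34, 32 and 57 fragments.

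No change in proportion was detected between the 2 de novo genes. Dnmt3b was 0.109 to 0.141 of Dnmt3a in Ph1, 0.0990 to 0.143 in Ph2 and 0.0986 to 0.163 in Ph3, ranges that overlapped, and neither step passed (exact permutation test, adjusted p of 0.757 and 0.542). The second difference, 0.15 on the log2 scale, rested on single transcriptomes, with 0.37 and no overlap without W3, 0.07 without W6 and 0.00 without W8. Dnmt3a and Dnmt1 did not fall in step. Their ratio was 0.584 to 0.799 in Ph1, 0.714 to 0.928 in Ph2, and 0.694, 0.529 and 0.534 at W3, W6 and W8. All 3 Ph3 values were below all 6 of Ph2, a log2 difference of -0.47 (exact permutation test over 84 splits, p = 0.0119, the smallest possible; adjusted p of 0.0381), and the preceding difference of 0.22 did not pass with 0.0779. The Ph3 call was lost with the protein borders (adjusted p of 0.0808) and narrowly with grouping by birth and weaning (0.0505). Of the summed FPKM of the 3 methyltransferases, Dnmt1 made up 49.0% to 62.2%, Dnmt3a 32.9% to 45.5% and Dnmt3b 3.88% to 6.26%.

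The TET genes had smaller differences at the first step than the other 4: the Ph2 mean was 0.566 (Tet1), 0.756 (Tet2) and 0.676 (Tet3) of the Ph1 mean, beside 0.278 (Uhrf1) to 0.396 (Dnmt3b). Tet3 (minus strand, chr6:83362373-83457378), the TET enzyme that acts in the zygote and in many differentiating tissues, was the most abundant of the 3 at each timepoint, with 65.99% to 73.4% of their summed FPKM. In Ph1 it lay between 11.99 at E17.5 and 15.2 at E12.5 with a median of 13.9 FPKM, in Ph2 between 7.70 at W1 and 11.2 at E18.5 with a median of 9.12. It then measured 5.31 at W3, 2.84 at W6 and 5.77 at W8. The groups were apart at both steps as deposited, by a narrow margin at the first, where E17.5 and E18.5 had overlapping bounds. The log2 difference was -0.53 ± 0.13 (SE; adjusted p of 0.00320 by limma) from Ph1 to Ph2 and -0.91 ± 0.16 (0.000477) from Ph2 to Ph3. After scaling these were -0.26 ± 0.10 with an adjusted p of 0.0358 and -0.40 ± 0.12 with 0.0169, neither of them called, and W8 reached 8.52 scaled FPKM, above the lowest Ph2 value of 8.21.

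Tet2 (minus strand, chr3:133463677-133545290), best known from blood stem cells, had the smallest first step. Its FPKM in Ph1 was 4.12 at E17.5, a median of 4.74 and 5.56 at E12.5, and in Ph2 2.97 at W1, a median of 3.51 and 4.37 at E18.5. Ph1 and Ph2 overlapped, and their difference of -0.33 ± 0.14 (SE) did not pass (adjusted p of 0.0443 by limma; -0.10 ± 0.12 with 0.505 after scaling). In Ph3 the values were 1.68 at W3, 0.949 at W6 and 2.69 at W8, all below Ph2, with a difference of -0.78 ± 0.17 and an adjusted p of 0.00136. That call was lost after scaling, -0.38 ± 0.15 with 0.0516, where W8 at 3.96 lay inside the Ph2 range. From W6 to W8 Tet2 rose with bounds apart, from 0.809-1.09 to 2.45-2.93 FPKM.

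Tet1 (minus strand, chr10:62804570-62902343), the TET gene associated with pluripotent and germ cells, was scarce. Ph1 ran from 0.958 at E17.5 through a median of 1.72 to 1.96 FPKM at E12.5, and Ph2 from 0.735 at D1 through 0.798 to 1.25 at E18.5. The 2 phases overlapped, because Tet1 rose from E17.5 to E18.5 with bounds apart, but their means differed by -0.43 ± 0.11 (SE; adjusted p of 0.00447 by limma). After scaling that difference was -0.26 ± 0.10 with 0.0311, and the call was also lost in 8 of 15 fits that left out 1 timepoint, E12.5 to E15.5, D1, D3, W1 and W2 in turn. Ph3 held 0.310 at W3, 0.0801 at W6 and 0.173 at W8, all below Ph2, a difference of -0.66 ± 0.14 (adjusted p of 0.00139 by limma) that stood after scaling at -0.55 ± 0.12 with 0.00232. Without W6 these adjusted p values were 0.0127 and 0.0210. At W6 the value rests on an estimated 15 fragments, with bounds of 0.0393 and 0.121 FPKM. With a pseudocount of 0.1 FPKM the same difference was -1.82 ± 0.27, and the mean of Ph3 was 0.214 of that of Ph2.

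The balance among the TET genes shifted from Ph2 to Ph3. Tet2 over Tet1 was 2.69 to 4.30 in Ph1, 3.50 to 4.75 in Ph2, and 5.44, 11.9 and 15.6 at W3, W6 and W8. Tet3 over Tet1 was 7.78 to 12.51, then 8.98 to 13.1, then 17.2, 35.5 and 33.4. In both ratios the 3 Ph3 values stood above all values of Ph2, by 1.25 and 1.34 on the log2 scale (exact permutation test over 84 splits, p = 0.0119, the smallest possible; adjusted p of 0.0381 each). With a pseudocount of 0.1 FPKM these differences were 0.72 and 0.77, with Tet1 at 0.0801 to 0.310 FPKM in Ph3, and both were still called (0.0317). With grouping by birth and weaning both narrowly missed (0.0505). Tet1 thus went from 8.60% of summed TET FPKM at E12.5 to 4.24% at W3 and 2.07% at W6. Tet3 over Tet2 ran between 2.15 at W8 and 3.15 at W3, and its step from Ph1 to Ph2 was -0.16 with an adjusted p of 0.0519.

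**Figure D4:**
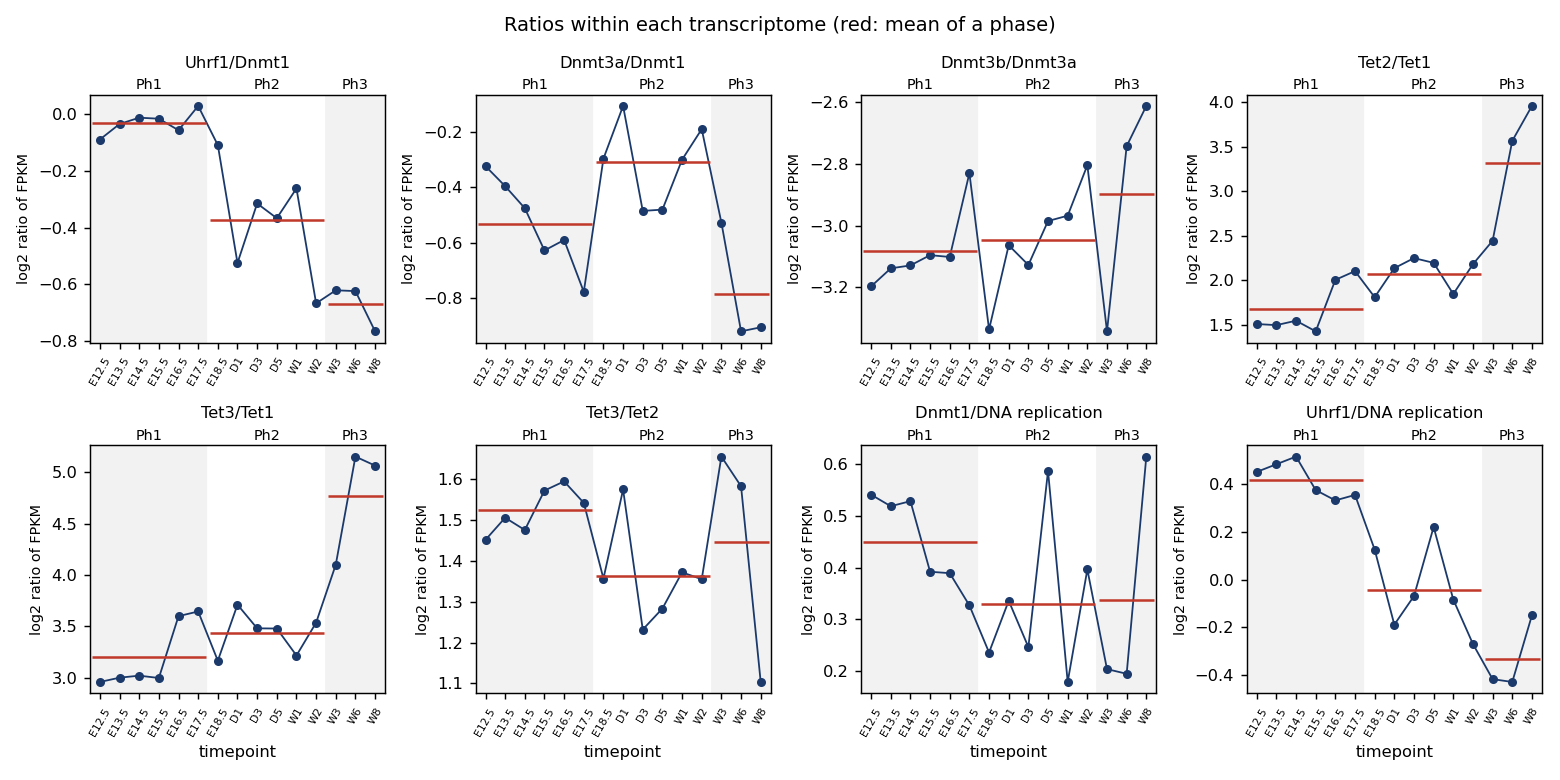
Log2 ratio of FPKM (vertical axes) for 8 pairs within each transcriptome at the 15 timepoints (horizontal axes), with the mean of each phase in red. Uhrf1 over Dnmt1 leaves its Ph1 range of 0.939 to 1.02 (linear) at E18.5, and Tet2 and Tet3 over Tet1 are highest in Ph3.

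Groups that do not overlap were counted on both scales. From Ph1 to Ph2, 5 of 7 genes lay wholly lower (not Tet1 and Tet2), as did 21.9% of all genes tested (7.79% lay wholly higher), and after scaling 4 of 7 (Dnmt1, Uhrf1, Dnmt3b and Tet3) against 11.8% (13.1% wholly higher). From Ph2 to Ph3 it was 7 of 7 against 44.7% (4.63% wholly higher), and after scaling 4 of 7 (Uhrf1, Dnmt3a, Dnmt3b and Tet1) against 16% (20.6% wholly higher).

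At D1 a local low point was resolved for Dnmt1 and Uhrf1, whose bounds at D1 were below and apart from those at E18.5 and at D3. By value alone, Dnmt1, Uhrf1, Dnmt3a, Tet1 and Tet2, 5 of 7, were lower at D1 than at both E18.5 and D3, beside 39.6% of all genes. So were 25 of 25 DNA replication, 15 of 15 mitosis, and 11 of 13 genes of 2-oxoglutarate supply and TET cofactors. The counts were 8 of 14 for methylation cofactors and regulators, 8 of 15 for S-adenosylmethionine supply and 5 of 10 for the methyl-CpG reader list. They were 3 of 13 for base excision and 0 of 1 for the tested germline gene. For Dnmt3a, Tet1 and Tet2 the bounds of D1 and D3 overlapped. Dnmt3b at 1.62 FPKM and Tet3 at 9.62 were slightly above their D3 values of 1.61 and 8.58. D1 was also the transcriptome in which 8 of 8 liver markers reached 1 FPKM, with Alb at 460.5 FPKM beside 14.6 at E18.5 and 25.8 at D3, and their sum was 1367 FPKM beside 254.9 and 353.6. In Ph3 that sum was 1501 to 2402 FPKM, with 3 to 6 of 8 markers at 1 FPKM. The part of liver RNA in the D1 values was not tested.

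Genes whose course was most like that of a member were sought among the 10323 or 10324 other genes with a mean of 5 FPKM or more, by Pearson r of log2(FPKM + 1) over the 15 timepoints. For Uhrf1 they were Clspn, Mcm3 and Nsl1, and for Dnmt1 Baz1b, Whsc1 and Nup155, with an r of 0.998 to 0.999 and of 0.996 to 0.997. Dnmt3a was closest to Hs2st1, Stau1 and Ehmt1, Dnmt3b to Dhx30, Smpd4 and Brd3, and Tet1 to L3mbtl3, Stau1 and Mfap3, at 0.990 to 0.997. Tet2 was closest to Guf1, Nktr and Exoc1 and Tet3 to Ino80, 6820431F20Rik and Sun1, at 0.986 to 0.990. All points share the decline in FPKM of the median gene, and after scaling Exoc1 had an r of 0.580 with Tet2, Stau1 of 0.689 with Tet1 and Sun1 of -0.05 with Tet3, whereas Clspn had 0.998 with Uhrf1.

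Related genes were examined as lists, by the number of tested genes called in each direction by limma beside the shares of all genes given above (in Ph2 against Ph1, 35.1% lower and 13.2% higher; in Ph3 against Ph2, 37.4% lower and 3.41% higher; after scaling 18.7% and 20%, then 10.2% and 15.3%). Among cofactors and regulators of methylation, 12 of 14 were lower in Ph2 than in Ph1 and 11 of 14 lower again in Ph3, with median log2 differences of -0.93 and -0.80. Zfp57, a zinc finger protein that keeps imprints methylated, had the largest changes, from 13.2 to 39.6 FPKM in Ph1 to 3.41 to 9.50 in Ph2 and 0.363 to 1.32 in Ph3 (-1.64 ± 0.27 and -2.23 ± 0.33, SE; adjusted p of 0.000230 and 0.000198 by limma). Its partner Trim28 was the most abundant, at 138 to 283, 61.9 to 96.0 and 28.7 to 46.5 FPKM, and was lower at both steps (-1.28 ± 0.19 and -1.20 ± 0.23), as was the histone methyltransferase Ehmt2 (-0.67 ± 0.13 and -0.64 ± 0.15). After scaling the second call was lost for both, at -0.60 with an adjusted p of 0.0202 and -0.05 with 0.800. Dnmt3l, the catalytically inactive partner of the de novo enzymes, peaked at 1.16 FPKM and was not called. After scaling 11 of 14 were lower in Ph2 and 3 of 14 in Ph3 (Cdca7, Cdca7l and Zfp57), and Kdm1b was higher at both steps.

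The methyl-CpG reader list took in MBD family genes, such as Mbd3, Mbd5 and Mbd6, whether or not their proteins read the mark. Of its genes, 4 of 10 were lower and 1 higher in Ph2 and 5 of 10 lower in Ph3, with medians of -0.31 and -0.55. After scaling 3 were lower and 1 higher in Ph2, and 0 of 10 were called by limma in Ph3, where 1 (Mbd2, higher) had an unadjusted p under 0.05. Mbd3, a subunit of the NuRD complex, fell from 115 to 146 FPKM in Ph1 to 63.3 to 89.7 in Ph2 and 50.5 to 63.8 in Ph3 (-0.72 ± 0.10 and -0.50 ± 0.12; adjusted p of 9.69e-05 and 0.00347 by limma), but its second difference was 0.10 with 0.466 after scaling. Mbd4, a glycosylase that repairs deaminated methylcytosine, fell in Ph2 (-1.14 ± 0.18) and had -0.74 ± 0.22 with 0.0113 in Ph3. Mbd2 measured 32.9 to 50.5, 37.9 to 49.4 and 32.4 to 43.9 FPKM and was called at neither step. Zbtb4, named after its values were seen, was the reader that rose in Ph2 (0.68 ± 0.12; adjusted p of 0.000301 by limma).

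Of the base excision genes that act after TET oxidation, 6 of 13 were lower and 1, Gadd45a, higher in Ph2, and 7 of 13 were lower in Ph3. Tdg, the glycosylase that removes oxidised methylcytosine (chosen, like the other genes named here outside the rule, after its values were seen), had medians of 42.2, 21.9 and 11.6 FPKM in the 3 phases and fell at both steps (-0.83 ± 0.14 and -0.76 ± 0.17; adjusted p of 0.000224 and 0.00178 by limma), the second being -0.19 with 0.245 after scaling. Parp1 and Apex1, the most abundant, fell at both steps too (-1.37 ± 0.20 and -1.11 ± 0.24 for Parp1, -1.09 ± 0.17 and -0.90 ± 0.21 for Apex1), but after scaling their second steps were -0.53 with 0.0502 and -0.33 with 0.138. Neil3 had the largest second step, -1.43 ± 0.24. After scaling the counts were 6 lower and 2 higher in Ph2, and 2 lower (Neil3 and Xrcc1) and 1 higher (Gadd45g) in Ph3.

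The supply of S-adenosylmethionine, the methyl donor, showed 8 of 15 genes lower and 1 higher in Ph2, and 6 of 15 lower and 1 higher in Ph3. Ahcy, which clears the by-product that inhibits methyltransferases, went from 58.5 to 99.1 FPKM in Ph1 to 32.9 to 46.5 in Ph2 and 23.1 to 30.3 in Ph3 (-1.02 ± 0.13 and -0.58 ± 0.16; adjusted p of 7.77e-05 and 0.00790 by limma), but its second difference was 0.01 after scaling. Mat2a, the synthetase outside the liver, fell in Ph2 (-0.53 ± 0.11) and had -0.38 ± 0.13 with 0.0236 in Ph3. After scaling neither was called, at -0.25 with 0.0271 and 0.22 with 0.118. Gnmt, a liver-enriched methyltransferase that consumes the donor, rose in Ph3 (1.32 ± 0.39; adjusted p of 0.00952 by limma), with 6.38 FPKM at D1 and 5.02 to 8.75 in Ph3. That call was lost with a pseudocount of 0.1 or 0.5 FPKM (adjusted p of 0.0184 and 0.0118), without the filter (0.0218) and with grouping by birth and weaning (0.0170). After scaling the counts were 6 lower and 2 higher, then 1 lower and 4 higher.

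In the list of 2-oxoglutarate supply and TET cofactors, 2 of 13 genes were higher and 1 lower in Ph2, and 4 of 13 higher and 2 lower in Ph3, with medians of 0.11 at both steps. After scaling 6 and then 8 of 13 were higher and 0 were lower by limma at either step, where 1 (Idh2, adjusted p of 0.0410) and 0 were lower at an unadjusted p under 0.05. Ogdh, which consumes 2-oxoglutarate in the tricarboxylic acid cycle, rose from 36.7 to 53.0 FPKM in Ph1 to 58.3 to 91.9 in Ph2 and 127 to 135 in Ph3 (0.77 ± 0.12 and 0.80 ± 0.14; adjusted p of 0.000143 and 0.000524 by limma). Sdhb rose in Ph3 (0.69 ± 0.13), whereas Ogt, a sugar transferase that binds TET proteins, fell in Ph3 (-1.02 ± 0.29; adjusted p of 0.00782) but had -0.45 with 0.189 after scaling. Idh2 fell in Ph2 (-0.48 ± 0.09) and was called at neither step after scaling.

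**Figure D5:**
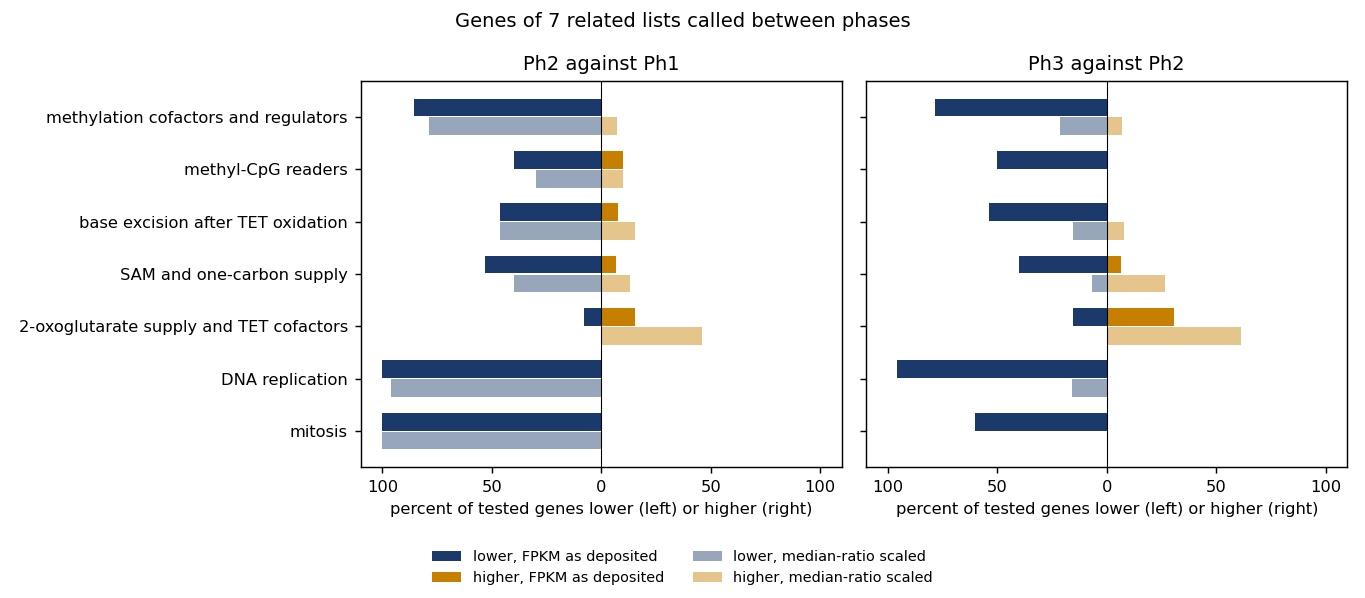
Percent of the tested genes of 7 lists that were lower (left of 0) or higher (right of 0) by limma at an adjusted p under 0.01, in Ph2 against Ph1 and in Ph3 against Ph2 (horizontal axes), as deposited (dark) and after scaling (light). The DNA replication and mitosis lists were lower in full in Ph2 as deposited, and after scaling 8 of 13 genes of the 2-oxoglutarate list were higher in Ph3.

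Like the maintenance pair, most genes of the proliferation lists were lower at both steps as deposited. Uhrf1 fell further than the replication mean from Ph1 to Ph2, as given above. All 25 DNA replication genes were lower in Ph2 and 24 of 25 in Ph3, with medians of -1.33 and -1.04, and after scaling 24 and 4 of 25. Pcna went from 218 to 307 FPKM in Ph1 to 105 to 175 in Ph2 and 65.6 to 104 in Ph3, and Mcm6 from 75.4 to 127, to 28.0 to 53.3, to 14.3 to 21.4, though their second steps were not called after scaling (-0.09 with 0.640 and -0.52 with 0.0222). Mcm4 had the largest first step (-1.73 ± 0.23) and Gins2 the largest second (-1.40 ± 0.26). Of the mitosis genes 15 of 15 were lower in Ph2 on both scales, and 9 of 15 in Ph3 as deposited against 0 of 15 by limma after scaling, where 7 had an unadjusted p under 0.05. Ccnb1 (-1.83 ± 0.24) and Bub1b (-1.74 ± 0.23 and -1.24 ± 0.28) had the largest steps, the second of Bub1b not being called after scaling (-0.74 with 0.0251), beside the abundant Birc5 (-1.62 ± 0.20) and Cenpa (-1.48 ± 0.21).

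The last list held germline genes whose promoters are known to be held silent by methylation in somatic cells. Their methylation was not measured here, and a link of their levels to the methyltransferases was not tested. Of 14 such genes, among them Dazl, Ddx4 and Sycp3, 13 never reached 1 FPKM, the highest value being 0.991, and were not tested. Of all 44788 symbols, 16902 reached 1 FPKM at any timepoint. Tdrd1 was the exception, with 1.16 to 2.50 FPKM in Ph1, 0.151 to 1.28 in Ph2 and 0.0887 to 0.142 in Ph3, and was lower in Ph2 (-0.60 ± 0.16; adjusted p of 0.00466 by limma; -0.44 with 0.0207 after scaling).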

How the data were processed

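Whole-stomach RNA was sequenced once per timepoint. The deposited values are FPKM per gene with lower and upper bounds, in 15 files of 46966 entries. Per the labels, the build is GRCm38.p2 and the tools are Bowtie 0.12.2 and FastQC. The study's methods name other alignment software and liver as the RNA source. Entries of a symbol were summed. Phases applied the study's RNA classification to the labelled ages, and no batch was given. Phase differences came from limma 3.58.1 (R 4.3.3), fitted on log2(FPKM + 1) of the 16902 genes that reached 1 FPKM at any timepoint, with Benjamini-Hochberg adjustment and a threshold of 0.01. Ratios used exact permutation tests at 0.05. The tests were first tested on simulated data. Fragments behind a value were estimated from its bounds, taken as Poisson, and cover counting error only. Members and lists were chosen with earlier results of these data known. Named list genes were the 2 of highest mean FPKM per list and the largest change at each step; genes chosen later are added. Alternatives covered the pseudocount, filter, scaling, grouping, entries and each timepoint left out.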

Additional observations from a re-analysis of the deposited data

Results flagged for a closer look

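Across 30 sets of 6 values (the 7 genes and 8 ratios in Ph1 and in Ph2), 1 stood apart by Dixon's test, where chance gives about 1 in 20. The ratio of Dnmt3b to Dnmt3a at E17.5, 0.141, was the highest of Ph1, and its gap to the next value was 0.749 of the range of the phase. The other Ph1 ratios lay between 0.109 and 0.117. Without E17.5, neither step of this ratio passed its test.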

How the results depend on the processing

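The alternatives changed the second step most. Ph3 against Ph2 called 7 of 7 genes, where 6328 of all 16902 genes tested were lower. It called 2 after median-ratio scaling, where 1716 of 16902 were lower. After quantile normalization it called 0 with limma, beside 1331 of 16902, and 5 of 7 had an unadjusted p under 0.05. It called 1 to 7 when a timepoint was left out, the lowest without W6, where 2822 of 16881 genes were lower. The list genes lower at that step numbered 64, and 10 after scaling, 5 after quantile normalization, 38 with grouping by birth and weaning, and 18 to 68 with a timepoint left out (18 without W6, 41 without W8). Those higher numbered 5, and 14 and 8 under the 2 scalings, and 4 to 6 with a timepoint left out. At the first step, 5 list genes were higher, with 3 at a pseudocount of 0.1 FPKM, 12 after scaling, 2 with grouping by birth and weaning, and 3 to 5 with a timepoint left out. Ratios gave 5 calls of 16, and 2 with grouping by birth and weaning; with the protein borders there were 4, without those of Uhrf1 and Dnmt3a over Dnmt1. Leaving out a timepoint gave 2 to 7; without E18.5, D3, D5, W1 or any Ph3 timepoint, which raises the smallest possible p, the 2 Uhrf1 ratios of the first step were the calls. Chosen after seeing the data, scaling with a pseudocount of 0.1 FPKM gave 3 genes and 11 lower and 14 higher list genes at the second step, and 12 higher at the first. Over all 16902 genes, 2030 were then lower at the second step. Scaling with grouping by birth and weaning gave 1, 5 and 12 at the second, beside 1305 of 16902 lower. Scaling with a timepoint left out gave 0 to 3, 3 to 16 and 9 to 16 at the second (of the latter, 15 without E17.5 and 13 without D3, D5 or W3) and 10 to 14 higher at the first. The 0 came without W6, where 617 of 16881 genes were lower. The F test (6 or 7 of 7) and the first step (4 to 6 of 7) stayed within 1.5 times their counts in the alternatives run, and no difference called for a member changed sign. The cause of these changes was not tested. With 1 transcriptome per timepoint, animal-to-animal error is unknown, and Tet1 and Dnmt3b after weaning rest on few fragments. No paired analysis was possible because the labels give no replicate numbers.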
